A study of Mus musculus with 6 samples.

Results

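The immediate early and stress-response genes are the first genes that a cell transcribes after a growth factor, a cytokine, a hormone or a stress reaches it. The 10 members followed here were Fos, Jun, Junb, Egr1, Atf3, Maff, Nr4a1, Dusp1, Zfp36 and Ier3, taken by gene symbol from a list of names, and each matched 1 of the 55039 gene rows of the count table. They were measured by mRNA sequencing in epididymal white adipose tissue (eWAT) of male C57BL/6 mice that were 6 to 7 weeks old at the start. The CAC group (cancer-associated cachexia) was 3 mice given Lewis lung carcinoma (LLC) cells under the skin, a transplanted mouse lung tumor line, and the CONT group was 3 mice given PBS in their place. The tissue was taken 28 days after the injection, 1 library per mouse, so each value is a single time point long after the tumor cells were given.

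Transcription of these genes starts within minutes because the factors that drive it are already present in the resting cell and are switched on by kinases: SRF with its partners at serum response elements, CREB at cAMP response elements and NF-kB at kB sites. Most of the mRNAs are short-lived, since AU-rich elements behind the coding region attract proteins that shorten the poly(A) tail, so a level at 1 time point reflects transcription shortly before sampling. In adipose tissue they are known to respond to adrenergic signals, insulin, glucocorticoids, inflammatory cytokines and also to dissection of the tissue, and they are expressed in adipocytes, vascular cells and immune cells alike.

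The libraries held 15713794 to 25926425 counts. CONT replicate 1 stood apart from the other 5: it had the lowest total, 30.2% of its counts came from mitochondrial genes against 3.89% to 5.04% in the others, and its TMM factor, which scales a library for its composition, was 0.717. CONT replicate 3 held 9518 CPM (counts relative to the TMM-adjusted library size) of 6 epididymis markers, against 202 CPM in CONT replicate 1, 2.72 CPM in CONT replicate 2 and at most 0.68 CPM in CAC. Of 6 adipocyte markers, all were measured, with a summed level of 12352 to 29759 CPM in CONT and 9541 to 25325 CPM in CAC, so the label of the tissue was met in both groups. Results that rest on CONT replicate 1 are given with and without it.

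All 10 members passed the filter on low counts, with 68 to 4887 reads in a library. Maff was about 4 times as high in CAC as in CONT, with no overlap of the groups, and Egr1 was lower in CAC, also with no overlap. The other 8 members overlapped between the groups. Of the 10 members, 7 had a higher and 3 a lower fitted level in CAC, and their median log2 fold change was 0.29, against -0.06 for the 17296 genes tested. By edgeR's quasi-likelihood test 0 members passed an adjusted p of 0.05, as did 0% of all genes tested. At an unadjusted p under 0.05 the test found 2 members, Maff and Egr1, where 13.3% of all genes tested were found, and the groups did not overlap in these same 2 members, where 22.5% of all genes tested did not overlap. DESeq2 called 1 member, Maff, at an adjusted p under 0.05, where 5.62% of the 17160 genes to which it gave an adjusted p were called, 3.22% as higher and 2.40% as lower. A share of 2 in 10 was thus near that of all genes, and no more is read from it. Without CONT replicate 1, 4 members had an unadjusted p under 0.05 (Maff, Dusp1 and Zfp36 higher, Egr1 lower), where 15.6% of all genes had one, 7.30% as higher and 8.28% as lower, and without CAC replicate 3 there was 1 (8.32% of all genes) and the members' median was -0.02.

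**Figure D1:**
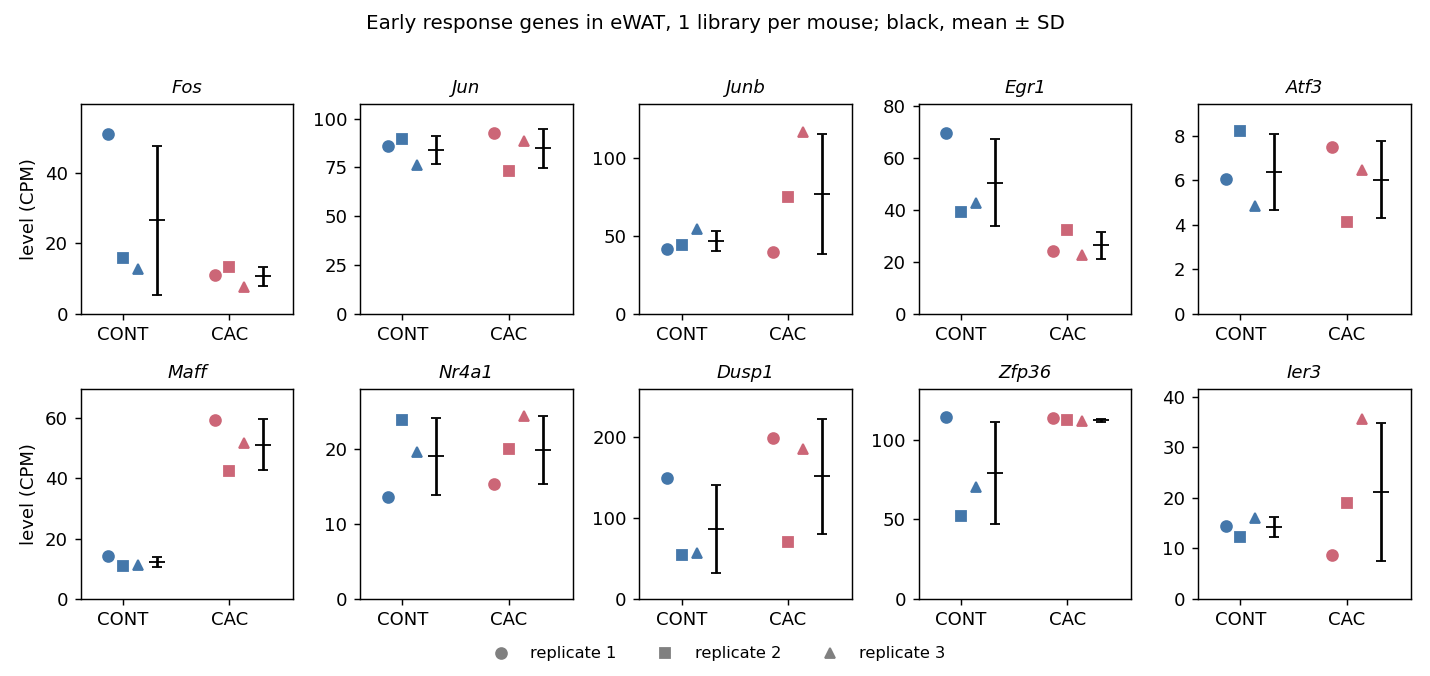
Level of each of the 10 genes in CPM, with a linear axis from 0 in every panel. Each point is the library of 1 mouse (circle, square and triangle for replicates 1, 2 and 3; blue for CONT, red for CAC) and the black bars are the mean ± SD of 3 libraries. The Maff points of CAC lie between 42.5 and 59.6 CPM, above all CONT points, and the circle of CONT replicate 1 is the highest CONT point of Fos, Egr1, Dusp1 and Zfp36.

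**Figure D2:**
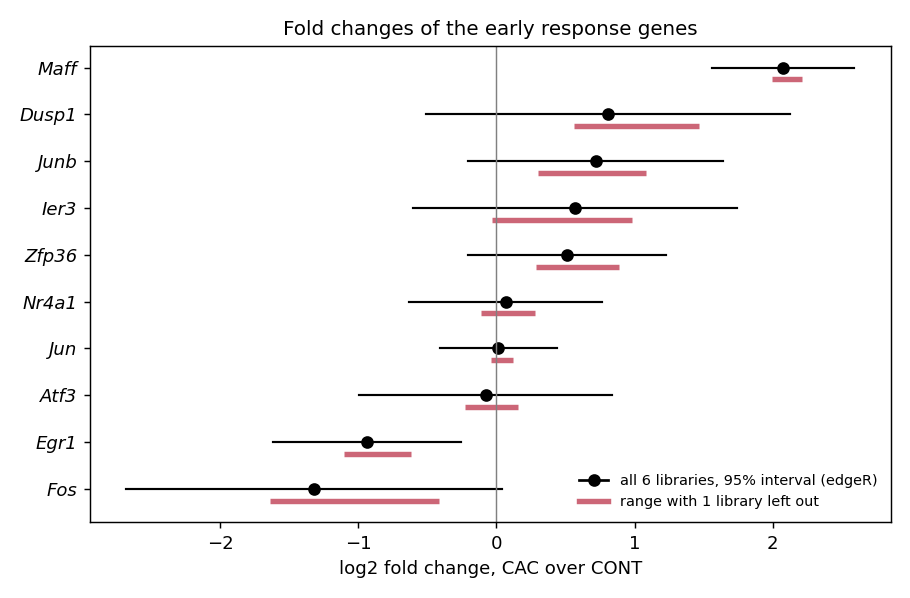
Log2 fold change of each gene, CAC over CONT, from edgeR. The black point and line are the value over all 6 libraries with its 95% interval, and the red bar spans the 6 values with 1 library left out. The intervals of Maff and Egr1 do not reach 0, and the red bars of Jun, Atf3, Nr4a1 and Ier3 cross it.

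Maff (ENSMUSG00000042622, GRCm38 chr15:79346621-79359076, plus strand) encodes a small Maf protein. Small Maf proteins have a bZIP domain but no activation domain, and they act as partners of CNC factors such as NRF2 or as repressing homodimers. Listed in the order of replicates 1, 2 and 3, as throughout, Maff was at 14.2, 10.99 and 11.3 CPM in CONT and at 59.6, 42.5 and 51.7 CPM in CAC. Every CAC library was thus higher than every CONT library, with little spread inside either group: the within-group SD on the log2 scale was lower than that of all but 17.3% of the genes tested. The mean was 12.2 ± 1.76 CPM in CONT and 51.3 ± 8.55 CPM in CAC (SD, n = 3 each), a 4.22-fold difference. The log2 fold change was 2.08 ± 0.21 (SE), with a 95% interval of 1.56 to 2.59.

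By unadjusted p, Maff ranked 4 among the 17296 genes tested, with an unadjusted p of 3.74e-05 (adjusted p = 0.127, edgeR's quasi-likelihood test). That adjusted p, which was also the smallest of any gene, did not pass. In DESeq2 Maff passed, with 2.10 on the log2 scale and an adjusted p of 1.26e-12. The exact permutation test of 3 against 3 libraries gave p = 0.1, two-sided, the smallest this design allows. With each library left out in turn the log2 fold change stayed between 1.996 and 2.21, and without CONT replicate 1 it was 2.21. The other small Maf genes, Mafg and Mafk, named here beside Maff whatever their values, differed by 0.26 (SE 0.19, unadjusted p = 0.217) and 0.46 (SE 0.30, unadjusted p = 0.173) on the log2 scale in edgeR's quasi-likelihood test, and both overlapped between the groups. Without CONT replicate 1 Mafk differed by 0.71 (unadjusted p = 0.0684 by the same test), and without CAC replicate 1 Mafk differed by 0.20 and Mafg by 0.14.

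Maff and Dusp1 share a sequence in front of their start sites, which is shown here with the corresponding stretch of Jun because it is the letter code of a known signal-driven element. RefSeq (GRCm38.p6) gave promoters for 9 of the 10 members, all but Egr1, 11 in all, from 250 bases before to 50 bases after the start. The full cAMP response element, TGACGTCA, was found in 2 of the 11, the middle Maff start (at -29, counted from the start) and Dusp1 (at -143), and in 1.79% of 32851 RefSeq promoters. TGACATCA, the form known from the Jun promoter that Jun and ATF2 dimers bind, was found in 2 of the 11, Jun and the last Maff start, both at -45, and in 3.62% of all promoters. The middle Maff start also held the EGR recognition sequence GCGTGGGCG at -88, present in 0.612% of all promoters. Its G-rich form GCGGGGGCG was found in Zfp36 and Nr4a1 (2.91% of all promoters), and TATAAA in Fos at -33 and in Junb at 1, the start itself (13.6%). Both strands were searched, and in the windows below the capitals mark these matches.
Maff, middle start, chr15:79347370-79347519, plus strand: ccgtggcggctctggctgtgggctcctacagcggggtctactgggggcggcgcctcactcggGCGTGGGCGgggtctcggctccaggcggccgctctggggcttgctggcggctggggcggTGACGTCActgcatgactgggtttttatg
Maff, last start, chr15:79348252-79348401, plus strand: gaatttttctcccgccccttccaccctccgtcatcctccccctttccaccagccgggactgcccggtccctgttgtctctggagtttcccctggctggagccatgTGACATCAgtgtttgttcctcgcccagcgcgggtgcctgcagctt
Dusp1, chr17:26508523-26508622, minus strand: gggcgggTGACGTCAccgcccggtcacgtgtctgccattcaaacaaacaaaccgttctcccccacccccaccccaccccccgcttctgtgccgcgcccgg
Jun, chr4:95052223-95052372, minus strand: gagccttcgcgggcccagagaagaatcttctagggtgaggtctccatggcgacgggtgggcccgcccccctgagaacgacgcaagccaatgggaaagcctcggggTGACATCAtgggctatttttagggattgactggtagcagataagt
A match of letters is not a binding site, and the 2 genes that share TGACATCA had different values, with log2 fold changes of 0.01 for Jun and 2.08 for Maff. The consensus AP-1 site TGANTCA was found in 0 of the 11 promoters and in 7.81% of all promoters, which says only that these letters are not in these windows.

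Fos and the Jun proteins form AP-1, the dimeric bZIP factor after which the early response is often named. Fos (chr12:85473890-85477273, plus strand) was at 51.1, 15.9 and 12.8 CPM in CONT and at 11.05, 13.2 and 7.66 CPM in CAC. The high value was that of CONT replicate 1, and CONT replicate 3 lay inside the range of CAC, so the groups overlapped. The mean was 26.6 ± 21.3 CPM in CONT and 10.6 ± 2.77 CPM in CAC (SD, n = 3 each). This gave a log2 fold change of -1.32 ± 0.57 (SE), with an unadjusted p of 0.0556 and an adjusted p of 0.385 in edgeR's quasi-likelihood test. The unadjusted p of Fos was 0.0321 in DESeq2, with an adjusted p of 0.219, and under 0.05 in 7 of 24 alternative settings. Without CONT replicate 1 it was -0.41 (unadjusted p = 0.22), and without CONT replicate 2 or 3 it was -1.58 (unadjusted p = 0.0385) and -1.64 (unadjusted p = 0.0293).

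Jun (chr4:95049034-95052222, minus strand, a gene of 1 exon) was the steadiest member, at 85.9, 89.7 and 76.1 CPM in CONT and 92.6, 73.1 and 88.5 CPM in CAC. The ranges lay on top of each other, and CONT replicate 1 did not stand out. Its log2 fold change was 0.01 with a 95% interval of -0.41 to 0.44, and only 7.26% of the genes tested had a smaller within-group SD. Its sign turned negative with upper-quartile normalization (-0.02).

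Junb (chr8:84974484-84978718, minus strand) was at 41.6, 44.1 and 54.0 CPM in CONT and at 39.2, 74.8 and 116 CPM in CAC. JUNB pairs with FOS as JUN does but is the weaker activator of many AP-1 targets. The lowest and the highest library were both CAC, so the groups overlapped. On the log2 scale Junb differed by 0.72 ± 0.39 (SE; unadjusted p = 0.107, adjusted p = 0.456, edgeR's quasi-likelihood test), 0.30 without CAC replicate 3 and 1.08 without CAC replicate 1 (unadjusted p = 0.00783 by the same test). Junb overlaps Prdx2 on the opposite strand, which had 18564 reads against 8551 for Junb, and as the library kit did not mark strand, reads of the shared stretch cannot be assigned to either.

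Egr1, a zinc finger factor that serum and growth factors switch on through SRF, was at 69.6, 39.2 and 42.4 CPM in CONT and at 24.0, 32.3 and 22.5 CPM in CAC. For Egr1 even the top CAC value lay below the lowest CONT library, by 32.3 against 39.2 CPM, and CONT replicate 1 was the highest of all. The mean was 50.4 ± 16.7 CPM in CONT and 26.3 ± 5.30 CPM in CAC (SD, n = 3 each), 1.92-fold lower. The log2 fold change was -0.94 ± 0.29 (SE), with a 95% interval of -1.62 to -0.26 (unadjusted p = 0.0144, adjusted p = 0.284, edgeR's quasi-likelihood test) and DESeq2's adjusted p was 0.105. Without CONT replicate 1 the value was -0.62 (unadjusted p = 0.0286, edgeR's quasi-likelihood test). Without CAC replicate 1 the same edgeR test gave -0.84 (unadjusted p = 0.076), and without CAC replicate 3 it gave -0.83 (unadjusted p = 0.0518).

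Nr4a1 and Atf3 gave no difference that could be told from the spread. Nr4a1 (chr15:101254269-101274795, plus strand), an orphan nuclear receptor without a known natural hormone, was at 13.6, 23.8 and 19.6 CPM in CONT and at 15.3, 19.9 and 24.4 CPM in CAC. Its log2 fold change was 0.07, with a 95% interval of -0.64 to 0.77. It was -0.11 without CONT replicate 1, which held the lowest Nr4a1 level, in contrast to its high Fos and Dusp1 levels. Atf3 (chr1:191170296-191218039, minus strand), a bZIP factor of the integrated stress response that represses many of its targets, was the lowest member at 6.06, 8.23 and 4.84 CPM in CONT and 7.51, 4.12 and 6.49 CPM in CAC. The log2 fold change was -0.08, with a 95% interval of -0.99 to 0.84, and it was 0.0062 without the filter on low counts.

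Dusp1, Zfp36 and Ier3 act in feedback: each is made early and then damps or limits the signal that induced it. Dusp1 (chr17:26505590-26508519, minus strand) encodes the phosphatase MKP-1, which inactivates p38, JNK and ERK in the nucleus and is also a known glucocorticoid target. It was at 149, 53.9 and 56.1 CPM in CONT and at 199, 69.7 and 185 CPM in CAC. The pair CONT 2 and 3 lay below every CAC library, while CONT replicate 1 lay between the CAC values. The log2 fold change was 0.81 ± 0.55 (SE; unadjusted p = 0.189, adjusted p = 0.545, edgeR's quasi-likelihood test). Without CONT replicate 1 it was 1.47 (unadjusted p = 0.0353, adjusted p = 0.29), and DESeq2 without that library gave 1.51 with an adjusted p of 0.0275. By edgeR's quasi-likelihood test Dusp1 differed by 0.56 (unadjusted p = 0.392) without CONT replicate 2 and by 0.59 (unadjusted p = 0.402) without CONT replicate 3. It differed by 0.58 (unadjusted p = 0.425, same test) without CAC replicate 1.

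Zfp36 (chr7:28376784-28380253, minus strand) encodes tristetraprolin, a zinc finger protein that binds AU-rich elements and leads mRNAs such as that of Tnf to decay. It was at 115, 52.2 and 70.6 CPM in CONT and at 114, 112 and 112 CPM in CAC. The 3 CAC libraries were nearly equal, with a mean of 113 ± 0.95 CPM against 79.1 ± 32.1 CPM in CONT (SD, n = 3 each), and CONT replicate 1 was level with them. The log2 fold change was 0.51 ± 0.30 (SE; unadjusted p = 0.136, adjusted p = 0.491, edgeR's quasi-likelihood test). Without CONT replicate 1 it was 0.89 (unadjusted p = 0.00475, adjusted p = 0.225), and DESeq2 without that library gave 0.93 with an adjusted p of 6.36e-04. Without CONT replicate 2, the lowest library, edgeR's quasi-likelihood test gave 0.29 (unadjusted p = 0.344). The antisense gene Gm44710 overlaps Zfp36 and had 238 reads against 12548.

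Ier3 (chr17:35821684-35822923, plus strand), a short gene that NF-kB induces and that modulates cell survival, was at 14.4, 12.2 and 16.002 CPM in CONT and at 8.71, 19.0 and 35.7 CPM in CAC. As with Junb, CAC replicate 1 was the lowest and CAC replicate 3 the highest of the 6 libraries. Ier3 had a log2 fold change of 0.57 ± 0.49 (SE; unadjusted p = 0.284, edgeR's quasi-likelihood test), of -0.03 without CAC replicate 3 and of 0.99 without CAC replicate 1 (unadjusted p = 0.0342 by the same test). The kB site, searched by its usual consensus, was found in 4 of the 11 promoters (Ier3, Fos, Nr4a1 and the last Maff start) and in 4.51% of all promoters.

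The serum response element core, the CArG box, was found in 1 of the 11 promoters, that of Zfp36 at -58, and in 1.63% of all promoters. For the other promoters this says only that these letters are not in the windows searched. Sequence further from the start was not searched, and neither was Egr1, which had no RefSeq promoter here. The Zfp36 match is shown because the CArG box is the SRF element of this gene group, with the match in capitals. The stretch lies in an exon of a longer annotated Zfp36 transcript.
Zfp36, chr7:28379267-28379296, minus strand: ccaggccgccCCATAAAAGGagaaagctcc

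The members' mRNAs can also be compared at the other end. In GENCODE M21 transcripts (GRCm38), the AU-rich heptamer TATTTAT behind the stop codon, a sequence that tristetraprolin recognises as UAUUUAU, was present at least once in 7 of the 10 members and at least 2 times in 5 of them. Of 21037 genes, 27.4% held it at least once and 10.3% at least 2 times. Ier3 held 4, Dusp1 and Zfp36 3 each, Fos and Maff 2 each, Jun and Atf3 1 each, and Junb, Egr1 and Nr4a1 held 0. The members with the most copies are shown with Fos and Maff, whose fold changes had opposite signs. Each line is a 30-base stretch with the most copies, not all copies of the gene, and the capitals mark the heptamer.
Zfp36, exon 2 of 2, chr7:28376958-28376987, minus strand: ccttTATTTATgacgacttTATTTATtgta
Ier3, exon 2 of 2, chr17:35822485-35822514, plus strand: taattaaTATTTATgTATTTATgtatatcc
Dusp1, exon 4 of 4, chr17:26506158-26506187, minus strand: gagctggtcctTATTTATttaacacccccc
Maff, exon 3 of 3, chr15:79358778-79358807, plus strand: ttccacactctTATTTATtgcacgaatcta
Fos, exon 4 of 4, chr12:85477103-85477132, plus strand: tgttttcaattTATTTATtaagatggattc
Members with the heptamer thus had log2 fold changes from -1.32 (Fos) to 2.08 (Maff), and members without it from -0.94 (Egr1) to 0.72 (Junb).

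Levels can be compared between genes on the deposited FPKM scale, which divides by gene length. In CONT the order of the mean FPKM was Dusp1 (25.8 ± 16.5), Jun (21.2 ± 1.75), Zfp36 (18.4 ± 7.61), Junb (16.3 ± 2.26), Ier3 (10.1 ± 1.39), Fos (9.13 ± 7.38), Egr1 (9.06 ± 3.08), Nr4a1 (4.34 ± 1.14), Maff (3.77 ± 0.578) and Atf3 (2.38 ± 0.629; SD, n = 3 each). The mean ± SD ranges of neighbours in this order overlapped from Dusp1 to Junb, from Ier3 to Egr1 and for Nr4a1 and Maff. In CAC, Dusp1 (45.8 ± 21.7) was still first and Atf3 (2.29 ± 0.676) last, and Maff had moved up to 16.2 ± 2.82 while Fos was at 3.69 ± 0.955 and Egr1 at 4.78 ± 0.940. Within single libraries Maff ranked 8 or 9 of the 10 members in CONT and 4 to 6 in CAC. Fos ranked 4 in CONT replicate 1 but 8 in CONT replicates 2 and 3, and 8 or 9 in CAC. Dusp1 ranked 1 in CONT replicate 1, whereas Jun ranked 1 in CONT replicates 2 and 3. The ratio of Maff to Egr1 FPKM was 0.352 to 0.484 in CONT and 2.27 to 4.29 in CAC, and that of Maff to Fos 0.252 to 0.801 in CONT and 2.93 to 6.12 in CAC. These ratios do not depend on how libraries are scaled.

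Because Jun differed least, reads of each gene were also divided by the Jun reads of the same library, a description that is free of the library's mitochondrial share. Maff stood at 0.165, 0.122 and 0.148 reads per Jun read in CONT and at 0.644, 0.581 and 0.584 in CAC, a ratio of means of 4.15. Maff was the only member whose ratio did not overlap between the groups, where 16.8% of all genes tested did not overlap on this scale. For Egr1 the ratio was 0.811, 0.437 and 0.557 in CONT and 0.260, 0.442 and 0.254 in CAC, so that CAC replicate 2 passed CONT replicate 2 on this scale.

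**Figure D3:**
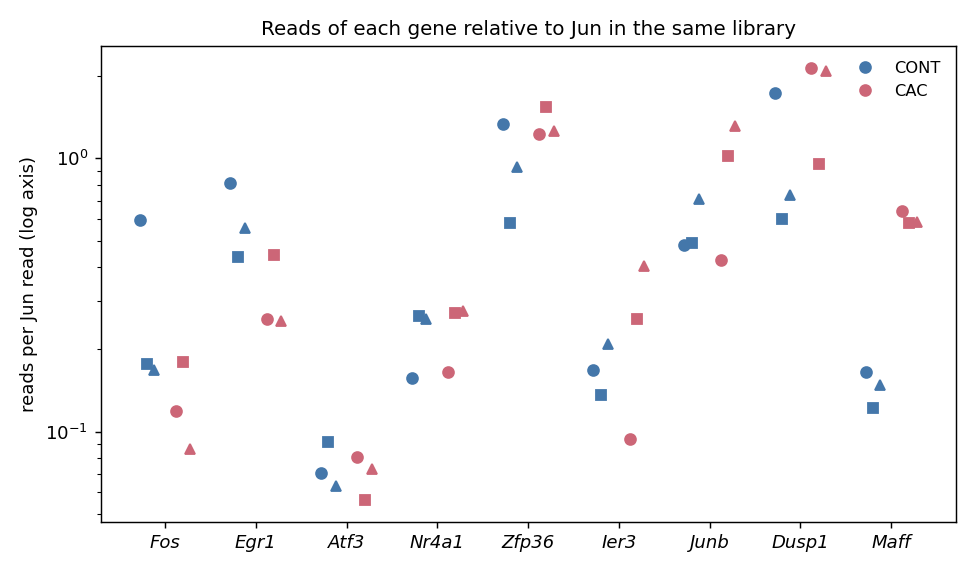
Reads of each gene per read of Jun in the same library, on a log axis, ordered by the ratio of the CAC mean to the CONT mean. Each point is 1 library (circle, square and triangle for replicates 1, 2 and 3; blue for CONT, red for CAC). Only the Maff points separate the groups, at 0.122 to 0.165 in CONT and 0.581 to 0.644 in CAC.

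The members did not move as 1 block across the 6 libraries. CONT replicate 1 exceeded the mean of the other CONT libraries by 1.84 for Fos, 1.44 for Dusp1, 0.92 for Zfp36 and 0.77 for Egr1 on the log2 scale, but was level for Jun (0.06), Atf3 (-0.06) and Ier3 (0.05) and lower for Nr4a1 (-0.67). Within CAC, Junb and Ier3 had the same order of libraries, with replicate 3 highest, whereas Maff and Dusp1 were highest in replicate 1. The genes other than members whose log2 CPM was most like that of Fos over the 6 libraries were Mgmt (Pearson r = 0.998), Lpar4 (0.996), Zfp846 (0.994), Exosc7 (0.993) and AU020206 (0.993). In all 5 genes CONT replicate 1 was the highest library, as for Mgmt at 25.5 CPM against 5.14 to 9.37 CPM in the others.

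Beyond the members, 108 further genes in 9 lists of relatives, regulators and targets were followed, of which 105 could be tested. At an unadjusted p under 0.05 in edgeR's quasi-likelihood test, 20 were higher in CAC, against 6.31% of all genes tested, and 8 were lower, against 6.95%. Their median log2 fold change was 0.23, and 0 passed the adjusted threshold. The total of 28 became 31, 18 and 19 without CONT replicates 1, 2 and 3, where the share of all genes tested was 15.6%, 9.30% and 9.25%. It became 23, 23 and 15 without CAC replicates 1, 2 and 3, where that share was 11.7%, 7.24% and 8.32%. With 1 library left out the number higher was 13 to 26 and the number lower 2 to 5, and the median log2 fold change was 0.14 without CAC replicate 1 or 3 and 0.35 without CAC replicate 2. The lists were chosen with earlier results of these data known, so these counts describe the lists and are no test of them.

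Among 10 other AP-1 and related bZIP genes, 2 were higher (Fosl2 and Fosl1) and 2 lower (Fosb and Batf3) at an unadjusted p under 0.05. There was 1 in each direction without CONT replicate 1 and the list's median log2 fold change was 0.25 in place of -0.14, and with another library left out 2 or 3 genes were found. Fosl2, the FOS relative FRA-2, was at 70.2, 60.1 and 41.7 CPM in CONT and at 105, 201 and 248 CPM in CAC, a log2 fold change of 1.69 (SE 0.37, unadjusted p = 0.0031, edgeR's quasi-likelihood test). Fosb, whose short form lacks the activation domain and is long-lived, was at 7.76, 7.88 and 2.35 CPM in CONT and at 1.81, 1.09 and 1.09 CPM in CAC, a log2 fold change of -2.17 (SE 0.59, unadjusted p = 0.00878). Neither gene overlapped between the groups, and both kept an unadjusted p under 0.05 with each library left out. The FOS family members thus had log2 fold changes of opposite sign in the same tissue. Batf3, known from dendritic cells, had a log2 fold change of -1.22 (unadjusted p = 0.0284), with p of 0.05 or more on leaving out CONT replicate 1 or 3 or CAC replicate 2 or 3. Fosl1 (FRA-1) had a log2 fold change of 1.19 (unadjusted p = 0.0442, edgeR's quasi-likelihood test), and its p was 0.0524 to 0.141 with each library left out.

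Of the relatives of Egr1 and Nr4a1, 4 of 5 could be tested, with 1 higher and 1 lower, and without CONT replicate 1 also 1 in each direction. Nr4a3 (NOR-1), another orphan receptor of the NR4A family, was at 1.52, 2.63 and 2.21 CPM in CONT and at 14.9, 37.5 and 95.1 CPM in CAC. Its log2 fold change was 4.52 ± 0.73 (SE; unadjusted p = 5.8e-04, adjusted p = 0.197, edgeR's quasi-likelihood test), 3.63 to 5.01 with 1 library left out, and DESeq2's adjusted p was 6.44e-09. Every CAC library exceeded every CONT library for Nr4a3, whereas Nr4a1 overlapped. Egr2 had a log2 fold change of -4.72 (unadjusted p = 0.0213), which rested on CONT replicate 3 at 71.6 CPM, the library with the epididymis markers, against 0.65 to 3.20 CPM in the other 5. It was -1.20 (unadjusted p = 0.164) without that library.

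Among 15 feedback inhibitors of MAP kinase and receptor signalling, 3 were higher and 1 lower. The counts were 1 higher and 2 lower without CONT replicate 1, without CONT replicate 3 they were 2 and 0, and without CONT replicate 2, CAC replicate 1 or CAC replicate 3 they were 1 and 0. Errfi1 (MIG6), an inhibitor of the EGF receptor, was at 50.5, 66.6 and 54.2 CPM in CONT and at 158, 537 and 973 CPM in CAC, a log2 fold change of 3.28 (SE 0.65, unadjusted p = 0.00177, adjusted p = 0.223, edgeR's quasi-likelihood test) and a DESeq2 adjusted p of 8.09e-06. It did not overlap between the groups. The JNK phosphatase gene Dusp16 (log2 fold change 0.63, unadjusted p = 0.0293) and the ERK pathway inhibitor Spry1 (0.70, unadjusted p = 0.0372) were smaller differences, and each had a p of 0.05 or more with CONT replicate 1 or 2 or CAC replicate 1 or 3 left out, Spry1 also without CONT replicate 3. Of 5 mRNA decay genes, 1 was higher: Zfp36l1, the relative of Zfp36, at 82.5 to 90.3 CPM in CONT and 108 to 180 CPM in CAC (log2 fold change 0.77, unadjusted p = 0.0141, 0.05 without CONT replicate 2). This count of 1 became 4 without CONT replicate 1 and 0 without CONT replicate 2. Of 9 mRNAs known as targets of tristetraprolin, 7 could be tested and 1, the neutrophil attractant Cxcl2, was higher, at 0.0892, 0.788 and 0.316 CPM in CONT and 1.15, 1.90 and 4.46 CPM in CAC (log2 fold change 2.57, unadjusted p = 0.0216, 0.0503 without CONT replicate 1, 0.0897 without CONT replicate 3 and 0.0782 without CAC replicate 3). The count of this list was 2 without CONT replicate 2 and 0 without CONT replicate 3. Without CAC replicate 3 it was 0 higher and 1 lower. The list's median log2 fold change of 0.45 was 0.05 without CONT replicate 1 and -1.25 without CAC replicate 3.

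Of 27 other early response genes, 4 were higher and 2 lower. These counts were 6 and 0 without CONT replicate 1, and the list's median log2 fold change was 0.70 in place of 0.38. Without CAC replicate 1 they were 7 and 2, without CAC replicate 2 they were 5 and 0, and without CAC replicate 3 they were 3 and 0. Myc was at 14.4, 11.8 and 12.2 CPM in CONT and at 33.0, 35.8 and 68.8 CPM in CAC (log2 fold change 1.84, SE 0.33, unadjusted p = 9.76e-04, edgeR's quasi-likelihood test). Sik1, a kinase gene that CREB induces, was at 15.8, 61.5 and 37.8 CPM in CONT and at 125, 118 and 116 CPM in CAC (1.63, unadjusted p = 0.0102). Csrnp1, a nuclear protein gene first described as induced by AXIN1, differed by 1.04 (unadjusted p = 0.0142). These 3 genes did not overlap between the groups and kept an unadjusted p under 0.05 with each library left out. Of 21 upstream kinases and factors, 2 were higher and 2 lower, against 3 and 1 without CONT replicate 1 and 1 or 2 genes in all with another library left out. Mkl2, an actin-regulated partner of SRF, differed by 0.94 (unadjusted p = 0.00719, edgeR's quasi-likelihood test) and Creb1 by 0.37 (unadjusted p = 0.0431), while the ERK-activated kinase gene Rps6ka3 stood at -0.69 (unadjusted p = 0.0154). Mkl2 kept an unadjusted p under 0.05 with each library left out, whereas that of Creb1 reached 0.12 and that of Rps6ka3 0.0666, each with several of the libraries. Of 10 heat shock genes 1 was higher, the mitochondrial chaperone Hspd1 (0.77, unadjusted p = 0.0136, up to 0.0609 on leaving out CONT replicate 2 or CAC replicate 3), and Hspa1a, Hspa1b and Dnajb1 had an unadjusted p above 0.05. The count of heat shock genes was 3 without CONT replicate 1 or 3 and 0 without CONT replicate 2 or CAC replicate 3.

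Of 6 glucocorticoid targets, 5 were higher and 0 lower, with a median log2 fold change of 1.85. Fkbp5, a co-chaperone of the glucocorticoid receptor, was at 120, 88.9 and 136 CPM in CONT and at 663, 606 and 622 CPM in CAC, a log2 fold change of 2.45 (SE 0.25, adjusted p = 0.127, edgeR's quasi-likelihood test). Pdk4, which restrains pyruvate oxidation, differed by 2.78 and Zbtb16, a zinc finger factor, by 2.17. Maff, Fkbp5 and Pdk4 shared the adjusted p of 0.127. With 1 library left out, 4 to 6 of the 6 had an unadjusted p under 0.05, 6 without CONT replicate 1 and 4 without CONT replicate 2, CONT replicate 3 or CAC replicate 1. This list, like the others, was chosen with earlier results of these data known.

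**Figure D4:**
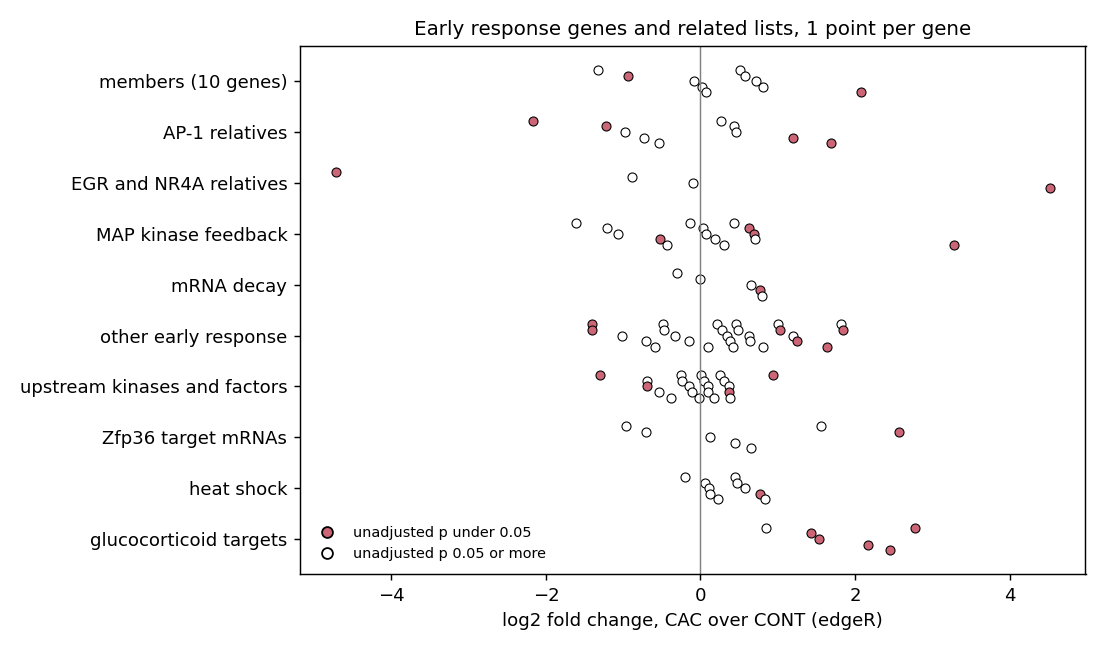
Log2 fold change, CAC over CONT, of each tested gene in the 10 members and in 9 lists of related genes, 1 point per gene, from edgeR. Filled points had an unadjusted p under 0.05. Maff is the filled member at 2.08, Nr4a3 and Egr2 are the outermost points at 4.52 and -4.72, and the glucocorticoid targets all lie above 0.

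In whole tissue, fewer cells of a type and less RNA per cell cannot be told apart. Neutrophil markers moved with the groups: all 6 of 6 were without overlap, 5 with an unadjusted p under 0.05, and their summed level was 5.17 to 57.2 CPM in CONT and 161 to 1073 CPM in CAC. Of all genes tested, 11.8% were higher and 10.7% lower without overlap. At an unadjusted p under 0.05 in edgeR's quasi-likelihood test, 6.31% of all genes were higher and 6.95% lower. In CAC replicates 1, 2 and 3 the summed neutrophil level was 161, 253 and 1073 CPM. The members Junb (39.2, 74.8 and 116 CPM), Ier3 and Nr4a1 had the same order of libraries, as had Fosl2, Nr4a3, Errfi1, Myc, Cxcl2 and Hspd1. The members Fos, Jun, Egr1, Atf3, Maff, Dusp1 and Zfp36 had other orders, as had Sik1, Fkbp5 and Zfp36l1, and Maff was highest in CAC replicate 1. The share of all genes with the neutrophil order was not counted. The defining marker Ly6g had 0, 3 and 3 reads in CONT, where 1 CPM stood for 11.2 to 22.8 reads. It was thus under 1 CPM in each CONT library, against up to 3.25 CPM in CAC. With 1 library left out its log2 fold change was 3.07 to 4.47 in edgeR. Fibroblast markers also moved: 4 of 6 were lower at an unadjusted p under 0.05, 4 were lower and 1 was higher without overlap, and their summed level was 1810 to 2320 CPM in CONT and 1329 to 1884 CPM in CAC. Of 6 B and plasma cell markers, 3 were lower at an unadjusted p under 0.05 and 5 were lower without overlap, with a summed level of 34.4 to 91.5 CPM in CONT and 7.82 to 19.0 CPM in CAC. Summed macrophage markers were at 611 to 1681 CPM in CONT and 695 to 1139 CPM in CAC, T cell markers at 7.64 to 13.1 and 5.63 to 7.10 CPM, endothelial markers at 1011 to 2106 and 1352 to 1740 CPM, and mesothelial markers at 184 to 197 and 81.4 to 235 CPM. Erythroid markers were at 5685 CPM in CONT replicate 1 against 261 and 394 CPM in the other CONT libraries and 1858 to 2450 CPM in CAC, beside the high Fos, Dusp1 and Zfp36 of CONT replicate 1. Muscle markers were at 45.8, 8.10 and 9.90 CPM in CONT and at 47.6, 11.4 and 10.6 CPM in CAC. Summed adipocyte markers were likewise highest in CONT replicate 1 (29759 CPM) and CAC replicate 1 (25325 CPM), against 9541 to 14459 CPM in the other libraries, and CAC replicate 1 was also the highest library of Maff and Dusp1. The part of any of these cell types in the results, and of the mitochondrial share in the Fos, Egr1, Dusp1 and Zfp36 values, was not tested, and the Maff difference was as large without CONT replicate 1.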

How the data were processed

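Total RNA of eWAT was poly(A) selected and sequenced, 1 library per mouse. The authors used HISAT2 2.0.5 with Ensembl release 94 (GRCm38) for alignment and then made read counts per gene, for which the submitters' processing notes name featureCounts 1.5.0-p3. The deposited counts are whole numbers without normalization, and the deposited FPKM values scale these counts by gene length and a library total. All columns were mapped to samples by name.

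Counts were analysed in R 4.3.3. The main test was edgeR 4.0.16, quasi-likelihood with robust estimation, TMM, filtering by group and Benjamini-Hochberg adjustment over the 17296 genes kept of 55039, with group as the only term. DESeq2 1.42.0, the study's own kind of test, was an alternative. FPKM was tested with limma 3.58.1 on log2(FPKM + 1) and log2(FPKM + 0.1), keeping genes at 0.5 FPKM or more in 3 libraries. FPKM was also tested without this filter. On that scale changes of low genes are understated. CPM uses the TMM-adjusted library size, and 1 CPM stood for 11.2 to 26.5 reads. Alternatives were RLE and upper-quartile normalization, mitochondrial genes left out, no filter, at least 10 counts in every library, no robust estimation, the replicate block and each library left out. Scripts were tested on simulated data. P-values measure the spread between these 6 mice.

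Named genes are all members, up to 3 genes of each list with the smallest unadjusted p under 0.05, and the 5 genes most like Fos. Fosl1, Mafg, Mafk and the heat shock genes without a difference were named outside this rule. Members and lists were chosen with earlier results of these data known. Sequences are from RefSeq and GENCODE M21.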

Additional observations from a re-analysis of the deposited data

How the results depend on the processing

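Across all genes, edgeR's quasi-likelihood test called 0 genes at an adjusted p under 0.05, with 2294 at an unadjusted p under 0.05. The count was 965 with DESeq2, 5 and 6 with limma on FPKM with a pseudocount of 1 and 0.1, 0 with limma on FPKM without a filter (2215 at an unadjusted p under 0.05), and 956 with voom and sample quality weights, which like DESeq2 with a library left out was chosen after seeing the data. DESeq2 called 2102, 623 and 888 genes without CONT replicates 1, 2 and 3, and 1506, 696 and 615 without CAC replicates 1, 2 and 3. Of the 10 members, 0 were called by edgeR, 1 by DESeq2 and 1 by voom (Maff in both), and 1 to 3 by DESeq2 with a library left out: Dusp1 and Zfp36 beside Maff without CONT replicate 1, and Junb (log2 fold change 1.06, adjusted p = 0.0145) without CAC replicate 1. The members' median of 0.29 ranged from -0.019 (without CAC replicate 3) to 0.41 in edgeR and from 0.00449 to 0.39 in DESeq2 with 1 library left out. The common dispersion was 0.265.

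Maff kept its direction and an unadjusted p under 0.05 in all 24 alternatives and an adjusted p under 0.05 in 8 of them, and its adjusted p in edgeR was 0.137 to 0.622 with 1 library left out. Egr1 kept its direction in all 24 and an unadjusted p under 0.05 in 21. The sign turned in 4 members. Jun was at -0.019 with upper-quartile normalization, -0.074 with voom, -0.038 to 0.12 in edgeR with 1 library left out, and in DESeq2 at -0.014 without CONT replicate 3 and -0.023 without CAC replicate 1. Atf3 was at 0.0062 without a filter and at -0.23 to 0.15 in edgeR with 1 library left out (in DESeq2 0.166 without CONT replicate 2 and 0.165 without CAC replicate 2). Nr4a1 was at -0.11 with voom and at -0.11 to 0.28 in edgeR with 1 library left out (in DESeq2 -0.064 without CONT replicate 1 and -0.071 without CAC replicate 3), and Ier3 at -0.030 to 0.99 (down to -0.0053 in DESeq2). For these the cause was not tested.

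The replicate numbers did not pair the samples: deviations from the group means correlated by 0.31, -0.15 and -0.22 for numbers 1, 2 and 3. With the replicate block in edgeR, 1 gene was called over all genes, Maff was at 2.07 (adjusted p = 0.284) and the members' median was 0.22.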
